A study of Mus musculus with 4 samples.

Results

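The genes described are 44 type I interferon-stimulated genes (ISGs), a list fixed by symbol and followed in each marker-defined cell class of the mouse spinal cord. Of these, 43 had a row among the 32285 genes of the tables, and Mx1 was not analysed here. Droplet-based single-cell sequencing read transcripts at their 3' ends, and each molecule was counted by its unique molecular identifier (UMI). There were 4 groups of 1 library each. The library labelled CD8 KO came from P301S homozygous mice of 30 weeks. The CD8 WT libraries came from P301S homozygous mice of 33 weeks (33-week WT), P301S homozygous mice of 30 weeks (30-week WT) and P301S negative mice of 30 weeks (P301S neg). P301S names a mutation of human tau that is used to model tauopathy, and the labels give neither the promoter of the transgene nor the CD8 gene that was altered. Each library pooled the cords of 2 mice, so no spread between animals exists and no test between groups was made. The class sum of a gene was divided by all UMIs of that class and library and is given on the usual CPM scale. Intervals are 95% intervals for counting error only.

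Type I interferons are secreted when a cell senses foreign or misplaced nucleic acid, and they bind a receptor made of IFNAR1 and IFNAR2 on the same cell and its neighbours. The signal reaches a complex that holds STAT2 and IRF9, which binds interferon-stimulated response elements in the promoters of ISGs. The proteins made from ISGs block virus entry and replication, sense nucleic acid, amplify the signal through IRF7 or end it through USP18. In the central nervous system a set of microglia with high ISG levels is known from ageing, injury and models of neurodegeneration.

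The core of the response element is a repeat of GAAA, searched here as GAAANNGAAA on either strand (TTTCNNTTTC), and the sequences below show what such promoters look like in genes that the results turn on. RefSeq promoters of build GRCm38.p6, from 250 bases before to 50 bases after the start, were held for 34 of the 44 members. The motif was present in 16 of these 34 genes (47.1%), against 3.99% of 27025 genes with a promoter. Ifitm3 and Trim25 are shown because they are among the highest members in monocyte-like cells, and Isg15, Rsad2, Ifit1 and Ifit3 were chosen after their values were seen. Capitals mark the matches, which overlap in Isg15. Trim25 has no match in this window. A match is a description of letters and not a measured binding site.
Ifitm3, chr7:141010695-141010994, minus strand: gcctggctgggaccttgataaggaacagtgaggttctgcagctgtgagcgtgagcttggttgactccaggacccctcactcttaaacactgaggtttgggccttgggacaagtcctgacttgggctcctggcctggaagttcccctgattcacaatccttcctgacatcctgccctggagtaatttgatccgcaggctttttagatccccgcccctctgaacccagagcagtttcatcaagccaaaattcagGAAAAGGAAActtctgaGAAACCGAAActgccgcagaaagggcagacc
Trim25, chr11:88999153-88999452, plus strand: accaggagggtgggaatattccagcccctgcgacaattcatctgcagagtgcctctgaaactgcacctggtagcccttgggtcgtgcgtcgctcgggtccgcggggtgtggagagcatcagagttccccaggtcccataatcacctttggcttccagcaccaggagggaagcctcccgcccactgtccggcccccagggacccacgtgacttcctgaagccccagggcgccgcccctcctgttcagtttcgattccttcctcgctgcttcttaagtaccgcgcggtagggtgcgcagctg
Isg15, chr4:156200769-156201068, minus strand: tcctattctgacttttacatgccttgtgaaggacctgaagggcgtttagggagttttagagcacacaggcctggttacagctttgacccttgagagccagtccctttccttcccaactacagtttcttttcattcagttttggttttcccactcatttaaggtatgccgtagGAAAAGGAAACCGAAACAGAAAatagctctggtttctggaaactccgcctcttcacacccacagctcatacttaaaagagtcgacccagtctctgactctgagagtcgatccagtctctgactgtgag
Rsad2, chr12:26456403-26456702, minus strand: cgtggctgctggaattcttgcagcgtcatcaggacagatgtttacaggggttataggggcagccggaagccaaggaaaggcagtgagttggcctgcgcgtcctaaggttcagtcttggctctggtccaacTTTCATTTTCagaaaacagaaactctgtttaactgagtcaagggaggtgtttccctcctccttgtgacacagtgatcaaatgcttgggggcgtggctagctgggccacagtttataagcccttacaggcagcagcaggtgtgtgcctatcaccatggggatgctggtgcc
Ifit1, chr19:34640639-34640938, plus strand: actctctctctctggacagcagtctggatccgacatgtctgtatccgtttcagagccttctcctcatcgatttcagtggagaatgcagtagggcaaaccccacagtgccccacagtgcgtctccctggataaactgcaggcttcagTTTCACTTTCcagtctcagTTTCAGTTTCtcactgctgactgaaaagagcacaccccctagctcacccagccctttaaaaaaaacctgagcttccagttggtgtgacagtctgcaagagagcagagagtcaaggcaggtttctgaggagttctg
Ifit3, chr19:34583279-34583578, plus strand: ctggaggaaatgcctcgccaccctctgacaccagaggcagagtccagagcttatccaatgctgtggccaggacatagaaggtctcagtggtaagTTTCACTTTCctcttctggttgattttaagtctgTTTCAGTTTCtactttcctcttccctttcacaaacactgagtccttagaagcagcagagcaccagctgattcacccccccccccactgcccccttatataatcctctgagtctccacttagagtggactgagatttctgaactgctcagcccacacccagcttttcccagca

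The libraries held 36331214 to 43531426 UMIs, and 4692 to 5640 cells per library were kept. CD8 KO was checked first. Cd8a, a chain of the T cell co-receptor CD8, stood in T cell-like cells at 16.3 CPM in the library labelled CD8 KO, 190 CPM in 33-week WT, 260 CPM in 30-week WT and 232 CPM in P301S neg. In endothelial-like cells the order was the opposite, with 1025 UMIs (122 CPM) in the library labelled CD8 KO and 0 UMIs in the 3 other libraries, where a count of 0 allows up to 0.216 to 0.529 CPM. Every direction for that library therefore rests on its label. By Xist and Y-linked UMIs, 3089 of its cells were male and 4 female, whereas 30-week WT held 0 male and 3723 female cells, so CD8 genotype and sex cannot be told apart in that pair. The 33-week WT and P301S neg libraries held both sexes. Barcodes shared between libraries numbered 44 of 22600. Neutrophil-, erythroid- and B cell-like cells, which are of marrow or blood types, were present in each library.

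ISGs were not evenly spread over the cord. Summed over members, monocyte-like cells stood highest, at 8316 CPM in the library labelled CD8 KO, 9621 CPM in 33-week WT, 10133 CPM in 30-week WT and 8943 CPM in P301S neg. Endothelial-like cells, which line vessels, were second by the mean over libraries, at 4593, 4083, 4660 and 5743 CPM in the same sequence. Schwann-like cells, which were few, stood at 6016, 2943, 2453 and 4041 CPM in that sequence. In the library labelled CD8 KO they were thus above endothelial-like cells. Macrophage-like cells, a class that holds microglia, were low at 1991 CPM in the library labelled CD8 KO, 1392 CPM in 33-week WT, 1563 CPM in 30-week WT and 1092 CPM in P301S neg. B cell-like and mural-like cells held 822 to 1293 CPM and OPC-like cells (oligodendrocyte precursors) 234 to 664 CPM. By the mean over libraries, 15 members were highest in monocyte-like cells, 12 in endothelial-like, 7 in Schwann-like, 3 each in erythroid-like and neutrophil-like, and 1 each in T cell-like, macrophage-like and mural-like cells.

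**Figure D1:**
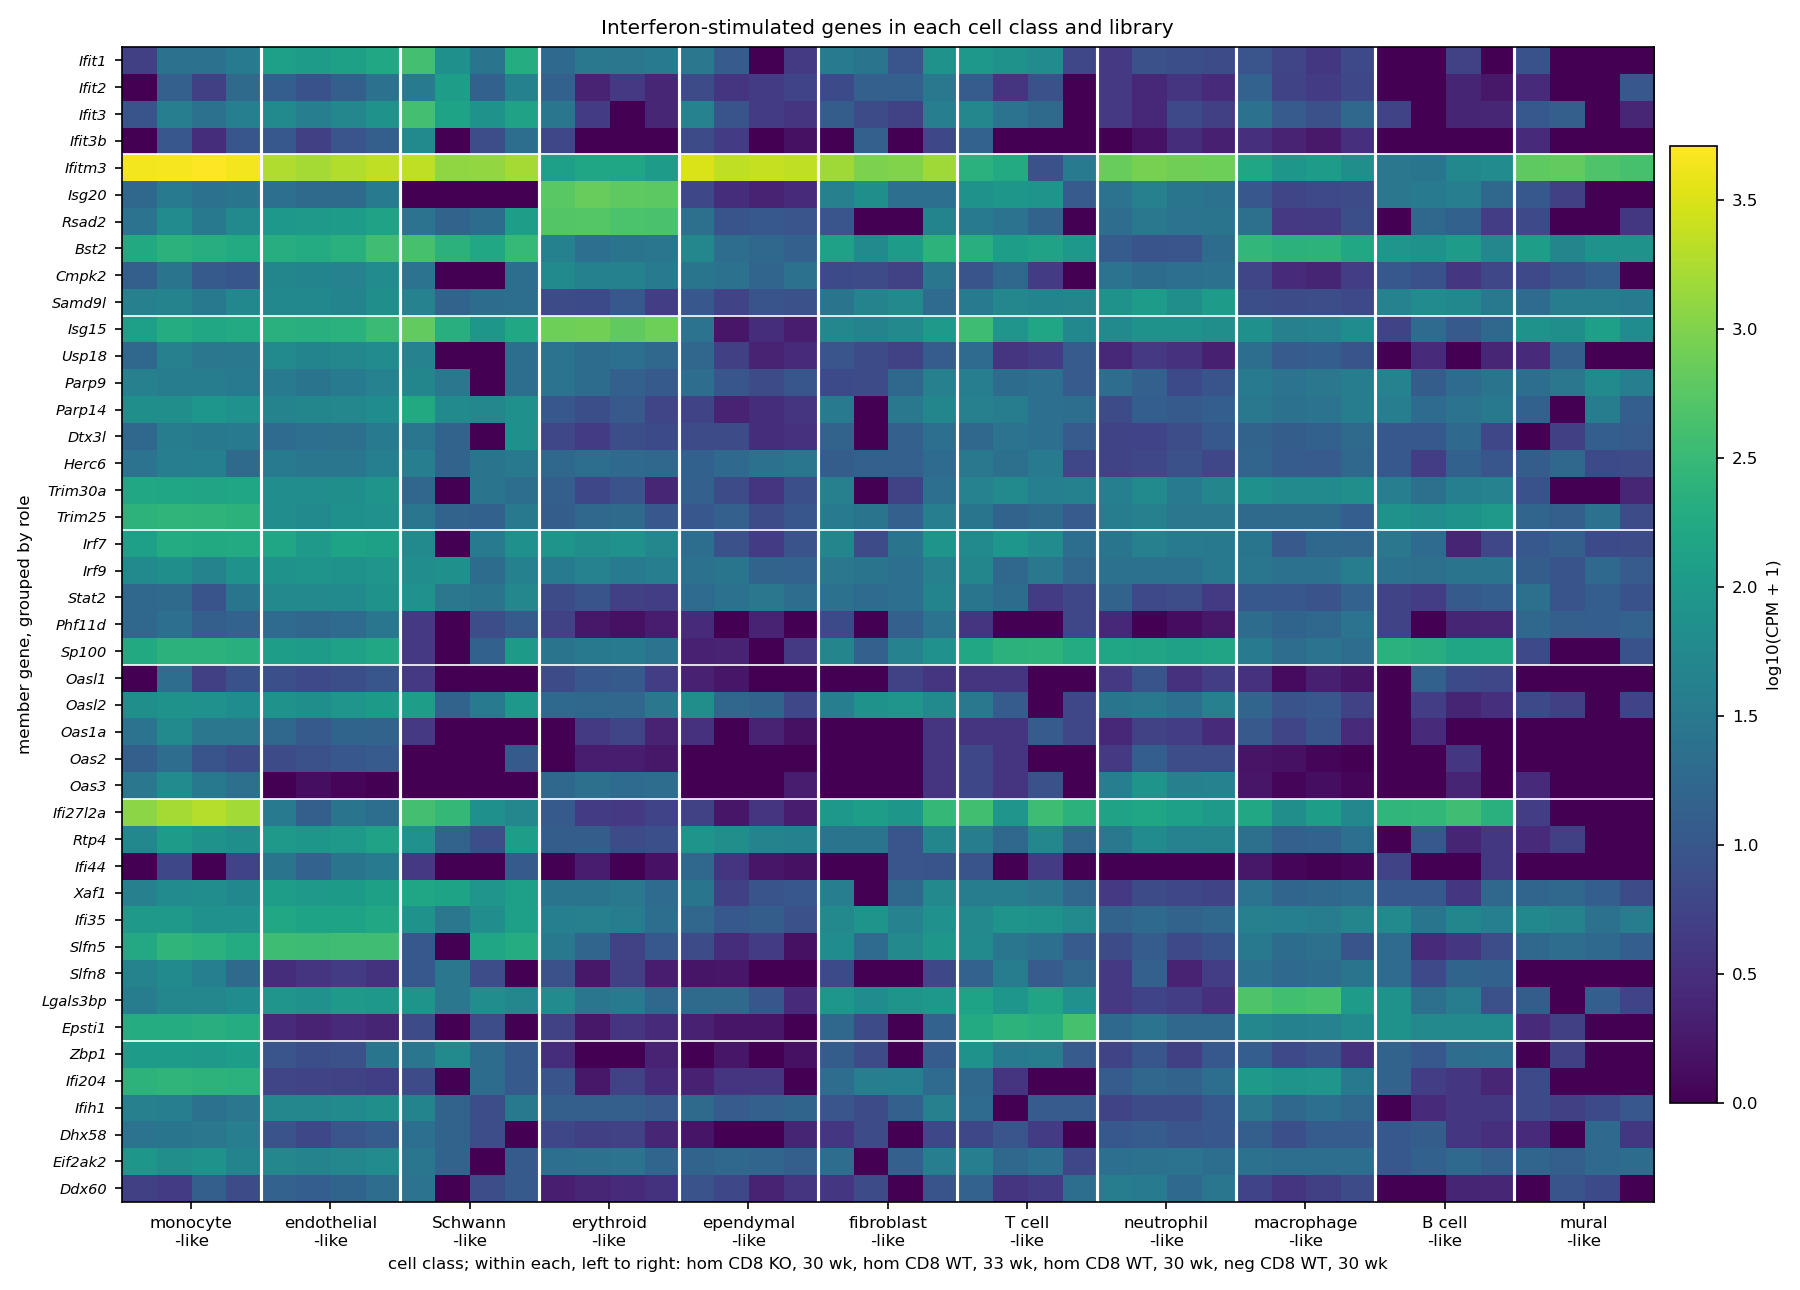
Level of each of the 43 measured members, as log10(CPM + 1), in 11 cell classes (columns) with 4 libraries within each class in the sequence given under the axis. Members are grouped by role, and fibroblast-like cells of 33-week WT rest on 20 cells. Ifitm3 is bright in several classes, Ifi27l2a in monocyte-like cells, and Isg15, Isg20 and Rsad2 in erythroid-like cells.

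A few members made up most of these sums. Ifitm3, a membrane protein that blocks virus entry, averaged 4637 CPM over the libraries in monocyte-like cells and 2537 CPM in ependymal-like cells, the cilia-bearing lining of the central canal. The lowest monocyte library was above the highest ependymal library. Ifi27l2a, a small mitochondrial protein gene, averaged 1581 CPM in monocyte-like cells and 291 CPM in B cell-like cells, again with no overlap. The nucleic acid sensors Ifi204 and Zbp1 and the ubiquitin ligases Trim25 and Trim30a were also highest in monocyte-like cells, with libraries that did not overlap those of the second class.

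Several members had their highest level in other classes. In erythroid-like cells Isg15, a ubiquitin-like modifier, averaged 762 CPM, the exonuclease Isg20 621 CPM and Rsad2 (viperin, which makes a chain-terminating nucleotide) 495 CPM. For Isg20 the second class, T cell-like, averaged 66.1 CPM, and for Rsad2 the second class, endothelial-like, averaged 110.3 CPM, with no overlap of libraries in either case. Lgals3bp, a secreted galectin ligand, was the only member highest in macrophage-like cells (355 CPM), and Epsti1 was the only one highest in T cell-like cells (271 CPM). Slfn5, a Schlafen family gene, stood at 362 CPM in the library labelled CD8 KO, 355 CPM in 33-week WT, 369 CPM in 30-week WT and 371 CPM in P301S neg in endothelial-like cells, an even level. Ifit1, Ifit2, Ifit3 and Ifit3b, whose proteins bind foreign RNA, had their highest mean in Schwann-like cells, the myelinating glia of the roots. For Ifit1, Ifit2 and Ifit3b the libraries overlapped those of the second class, and the Schwann-like mean of Ifit1 rests on the library labelled CD8 KO and P301S neg. Reads of Ifit3 and Ifit3b, which are close copies, may be split between them.

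Over 35 class and library sums of at least 50 cells, the log2 CPM of single members followed the mean of the other members to different degrees. The median Pearson r was 0.625, the highest was 0.897 for Eif2ak2, an RNA-activated kinase, and the lowest was 0.273 for Cmpk2, a mitochondrial nucleotide kinase next to Rsad2. Among 12325 genes outside the lists, Rnf213 was most like the mean of the members (r = 0.939), followed by H2-T23 (0.808), Klf13 (0.793), Deptor (0.790) and Hpcal1 (0.774). These points share libraries and depth, so the r values describe the sums and carry no test.

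The library labelled CD8 KO stood above all 3 others for many members in some classes and for none in others. A member was counted when its CPM was at least 1.5-fold above each of the other libraries, among members with at least 20 UMIs in all. In macrophage-like cells 10 of 43 members passed, against 0.815% of all genes tested. That share is read beside those of the other libraries, each set above its 3 others in this class. Of all genes, 28.0% passed for P301S neg, 0.615% for 33-week WT and 0.454% for 30-week WT, with 0 members in each. In Schwann-like cells 7 of 23 passed against 3.62%, and in ependymal-like cells 12 of 27 against 2.32%. T cell-like cells had 9 of 27 (background 9.66%) and erythroid-like cells 10 of 38 (8.41%). B cell-like cells had 3 of 24 (7.36%), OPC-like cells 2 of 4 (2.51%), mural-like cells 2 of 11 (2.88%) and neutrophil-like cells 2 of 38 (6.65%). These few were Lgals3bp, Parp9 and Irf7 in B cell-like, Ifitm3 and Rtp4 in OPC-like, Stat2 and Bst2 in mural-like, and Stat2 and Parp9 in neutrophil-like cells. Ifitm3 in OPC-like cells stood at 156 CPM in the library labelled CD8 KO, 42.1 CPM in 33-week WT, 30.9 CPM in 30-week WT and 14.2 CPM in P301S neg. Of the OPC-like cells in the library labelled CD8 KO, 3 of 59 held 56.9% of all member UMIs. Endothelial-like and monocyte-like cells, the classes where ISGs were highest by the mean over libraries, had 0 of 42 (0.913%) and 0 of 39 (4.23%).

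**Figure D2:**
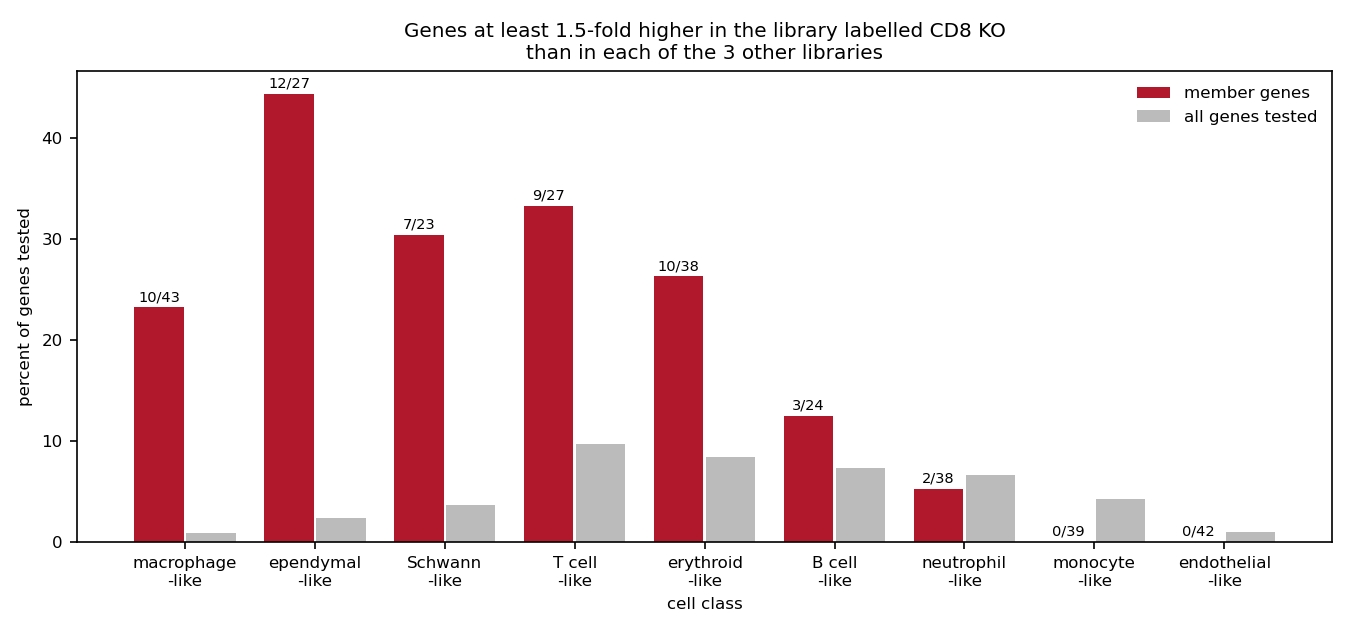
Percent of member genes (red, left bar of each pair, with the count above it) and of all genes tested (grey) that were at least 1.5-fold higher in the library labelled CD8 KO than in each of the 3 other libraries, by cell class. The red bar is far above the grey in macrophage-like cells (10 of 43 against 0.815%) and absent in endothelial-like cells (0 of 42 against 0.913%).

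Macrophage-like cells carry the best-measured part of this pattern, with 2359 cells in the library labelled CD8 KO, 1592 in 33-week WT, 1941 in 30-week WT and 1336 in P301S neg. Against 30-week WT, 16 of 41 members were at least 1.5-fold higher (4.40% of all genes) and 0 were lower (2.77%). All 41 tested members had a ratio above 1, with a median log2 ratio of 0.43 against 0.03 for all genes. Over the 4 libraries, the library labelled CD8 KO was the highest for 32 of 43 members. Its median log2 ratio to the highest other library was 0.20 for members and −0.40 for all genes tested. The share of all genes highest in that library was not computed. The endothelial marker list summed to 87.9 CPM in macrophage-like cells in the library labelled CD8 KO, 96.1 CPM in 33-week WT, 89.3 CPM in 30-week WT and 102.7 CPM in P301S neg, with 0 of its 10 markers above the other libraries by the same count. The macrophage list itself summed to 46215 to 49664 CPM, with 0 of 14 markers above.

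Among the IFIT genes, on chromosome 19, Ifit2 (ENSMUSG00000045932, 34550694 to 34576419) stood at 13.6 CPM in the library labelled CD8 KO, 4.70 CPM in 33-week WT, 3.54 CPM in 30-week WT and 5.42 CPM in P301S neg. Ifit3 (34583531 to 34588731) stood at 23.8 CPM in the library labelled CD8 KO, 10.5 CPM in 33-week WT, 7.36 CPM in 30-week WT and 16.6 CPM in P301S neg. Ifit1 (34640871 to 34650009) stood at 8.63, 4.91, 3.01 and 5.58 CPM in the same sequence of libraries. In each of the 3 the library labelled CD8 KO was the highest and P301S neg was above both WT libraries of P301S homozygous mice. The folds over 30-week WT were 3.84 (2.97 to 5.01) for Ifit2, 3.23 (2.70 to 3.89) for Ifit3 and 2.87 (2.15 to 3.87) for Ifit1.

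The widest gap among well-counted members was that of Rsad2 (ENSMUSG00000020641, chromosome 12, 26442746 to 26456452), whose promoter is shown above. It stood at 22.7 CPM in the library labelled CD8 KO, 3.15 CPM in 33-week WT, 3.25 CPM in 30-week WT and 6.86 CPM in P301S neg. It was 6.97-fold (5.41 to 9.12) higher than in 30-week WT and 3.31-fold above the highest of the other libraries. Its neighbour Cmpk2 was 3.53-fold (2.33 to 5.51) higher, at 4.89 CPM in the library labelled CD8 KO against 1.39 CPM in 30-week WT. Other genes of membrane and replication block differed less, with Ifitm3 at 156 CPM in the library labelled CD8 KO against 112 CPM in 30-week WT (1.39-fold) and Bst2 (tetherin, which holds budding virus at the membrane) at 290 CPM against 253 CPM (1.15-fold).

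Of the OAS family, which senses double-stranded RNA, Oasl2 stood at 15.1 CPM in the library labelled CD8 KO, 7.78 CPM in 33-week WT, 9.17 CPM in 30-week WT and 4.46 CPM in P301S neg. Its fold over 30-week WT was 1.64 (1.37 to 1.97). Oasl1, which limits translation of Irf7, was 2.15-fold (1.30 to 3.66) above 30-week WT at a low level, 2.36 CPM in the library labelled CD8 KO against 1.10 CPM. Oas3 was counted as above the others on 16 UMIs, and Oas1a (1.24-fold) was not.

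In the ISG15 conjugation group, Isg15 (ENSMUSG00000035692, chromosome 4, 156199424 to 156200818) stood at 72.3 CPM in the library labelled CD8 KO, 39.96 CPM in 33-week WT, 43.6 CPM in 30-week WT and 63.1 CPM in P301S neg. It was 1.66-fold (1.53 to 1.80) above 30-week WT but only 1.14-fold above P301S neg, so it was not counted as above all others. Usp18, the protease that removes ISG15 and inhibits the receptor, stood at 20.9 CPM in the library labelled CD8 KO, 10.7 CPM in 33-week WT, 11.9 CPM in 30-week WT and 8.13 CPM in P301S neg. It was 1.753-fold (1.502 to 2.051) above 30-week WT. Trim25, Dtx3l and Parp9 were close to 30-week WT, with folds of 1.01, 1.06 and 1.17.

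Of the transcription factors, Irf7, which drives a second wave of interferon genes, stood at 26.9 CPM in the library labelled CD8 KO, 10.0 CPM in 33-week WT, 16.6 CPM in 30-week WT and 15.6 CPM in P301S neg. Its fold over 30-week WT was 1.62 (1.42 to 1.85). Irf9 and Stat2, which encode parts of the complex that binds response elements, were at 1.17-fold (1.04 to 1.32) and 1.21-fold (0.984 to 1.49). Among the sensors, Zbp1, which binds left-handed nucleic acid, stood at 11.7 CPM in the library labelled CD8 KO, 5.61 CPM in 33-week WT, 7.36 CPM in 30-week WT and 2.39 CPM in P301S neg. Dhx58 (1.12-fold) and Samd9l (1.05-fold), a translation inhibitor, were among the 4 lowest ratios. Ifi44 had 17 UMIs in the library labelled CD8 KO and 1 UMI in 30-week WT, a ratio of 15.3 with an interval of 2.39 to 638.

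**Figure D3:**
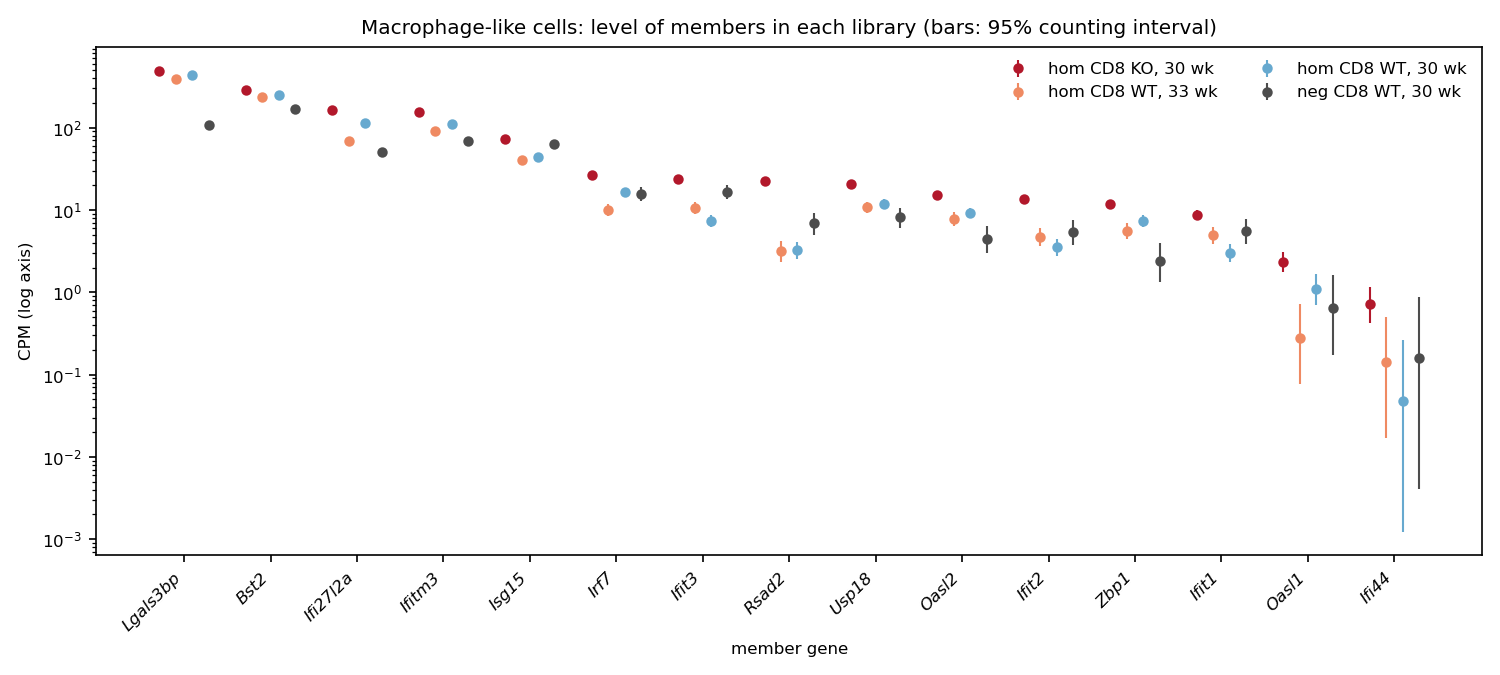
CPM on a log axis for 15 members in macrophage-like cells, 1 point per library with its 95% counting interval. For Rsad2 the point of the library labelled CD8 KO (22.7 CPM) is far from the other 3 points (3.15 to 6.86 CPM), whereas for Bst2 the P301S homozygous libraries lie close together (238 to 290 CPM).

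The higher sums of macrophage-like cells lay in few cells for some members. In the library labelled CD8 KO the 528 UMIs of Rsad2 lay in 100 cells, 175 of them in 3 cells, against 45 UMIs in 24 cells of 33-week WT, 68 UMIs in 41 cells of 30-week WT and 43 UMIs in 12 cells of P301S neg. A UMI of Isg15 was present in 25.1% of these cells in the library labelled CD8 KO, 17.3% in 33-week WT, 22.9% in 30-week WT and 14.4% in P301S neg. These shares are not corrected for depth, and the median depths of the class were 9379, 8160.5, 10422 and 4985 UMIs by library in that sequence. Without the 1% of cells with the most member UMIs in each library, an alternative chosen after the data were seen, Rsad2 stood at 9.46 CPM in the library labelled CD8 KO, 1.42 CPM in 33-week WT, 2.03 CPM in 30-week WT and 1.30 CPM in P301S neg. In that setting 15 of 40 members were higher than in 30-week WT (4.30% of all genes) and 11 of 40 were above all 3 others (0.779%).

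To compare cells at equal depth, each cell was thinned to 2000 UMIs and members with a UMI were counted. At least 5 members were found in 14.8% of macrophage-like cells in the library labelled CD8 KO (13.4% to 16.4%), 7.39% in 33-week WT (6.11% to 8.84%), 11.1% in 30-week WT (9.67% to 12.6%) and 4.59% in P301S neg (3.38% to 6.07%). Thinning left out 103 cells of the library labelled CD8 KO, 104 of 33-week WT, 88 of 30-week WT and 333 of P301S neg, and the unthinned shares were 73.7%, 59.6%, 73.1% and 28.6% in the same sequence. Mural-like cells had shares of 0% to 3.70%, where 0 of 41 cells allows up to 7.32% by a floor of 3 cells. That class is 1 cluster, and clusters led by Vtn and Acta2, set aside as mixed with endothelial cells, held member sums of 3511 to 5805 CPM. In endothelial-like cells the highest share was in P301S neg, with 55.1% in the library labelled CD8 KO, 48.8% in 33-week WT, 54.8% in 30-week WT and 66.3% in P301S neg.

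**Figure D4:**
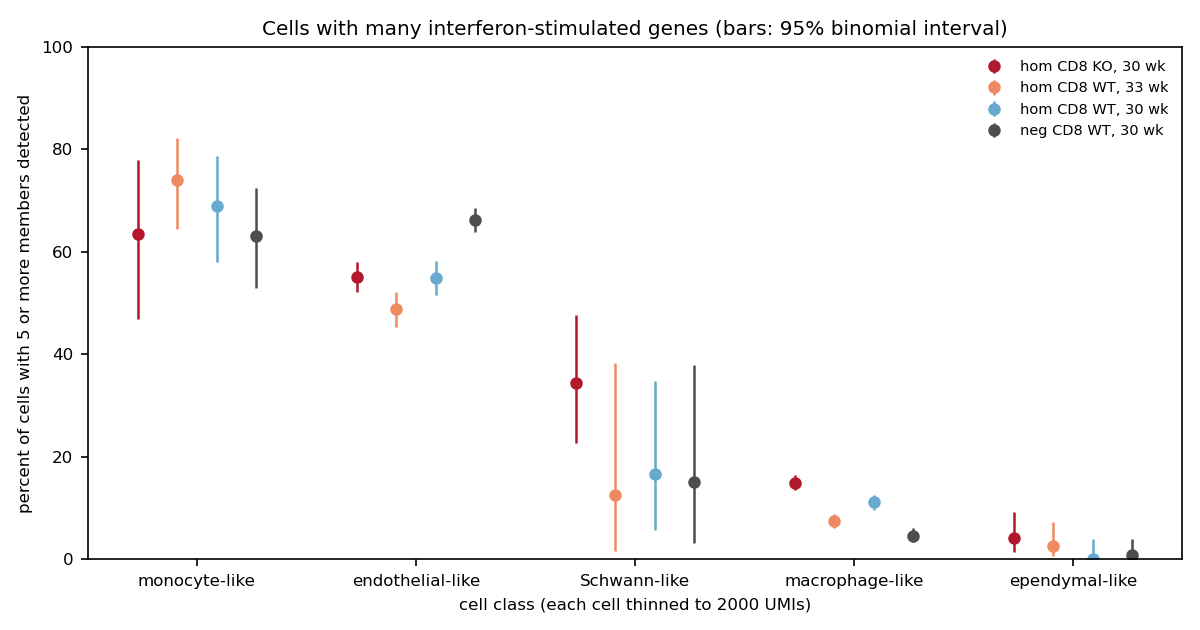
Percent of cells with at least 5 members detected after each cell was thinned to 2000 UMIs, in 5 classes and 4 libraries, with exact binomial 95% intervals. Macrophage-like cells in the library labelled CD8 KO (14.8%) lie above those of the 3 other libraries (4.59% to 11.1%), and endothelial-like cells of P301S neg (66.3%) above those of the P301S homozygous libraries (48.8% to 55.1%).

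The direction was not the same in each macrophage-like cluster. The member genes were not used in the clustering. In cluster 13, led by complement genes such as C1qa, 18 of 39 members were higher than in 30-week WT (4.73% of all genes) and 0 were lower. In cluster 3, led by Spp1, 13 of 38 were higher (3.48%), and in cluster 0, led by Ccl3, 9 of 40 (5.75%), with 0 lower in either. Cluster 12 had 8 higher and 3 lower of 31 (9.35% and 7.09% of all genes), and cluster 15, led by Gpnmb, 5 higher and 6 lower of 29 (7.72% and 8.70%). In cluster 19, led by the microglial genes P2ry12 and Tmem119, 1 of 31 members was higher (7.34%) and 19 were lower (7.48%), with a median log2 ratio of −0.62.

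Rsad2 shows the split. In cluster 0 it stood at 50.7 CPM in the library labelled CD8 KO, 4.75 CPM in 33-week WT and 4.06 CPM in 30-week WT. In cluster 3 it stood at 18.6, 1.69 and 1.77 CPM in the same sequence. In cluster 19 it had 0 UMIs in 265 cells of the library labelled CD8 KO, against 10.1 CPM in 33-week WT, 14.0 CPM in 30-week WT and 7.46 CPM in P301S neg. Ifit3 was tested in clusters 13 and 19, with log2 ratios to 30-week WT of 1.44 and −2.18. Ifit3 in cluster 19 stood at 6.41 CPM in the library labelled CD8 KO, 17.9 CPM in 33-week WT, 29.2 CPM in 30-week WT and 14.0 CPM in P301S neg. Over all members, 30-week WT stood apart in cluster 19, with sums of 1163 CPM in the library labelled CD8 KO, 1165 CPM in 33-week WT, 1755 CPM in 30-week WT and 1030 CPM in P301S neg. Cluster 19 held 265 cells of that library, 188 of 33-week WT, 164 of 30-week WT and 979 of P301S neg.

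**Figure D5:**
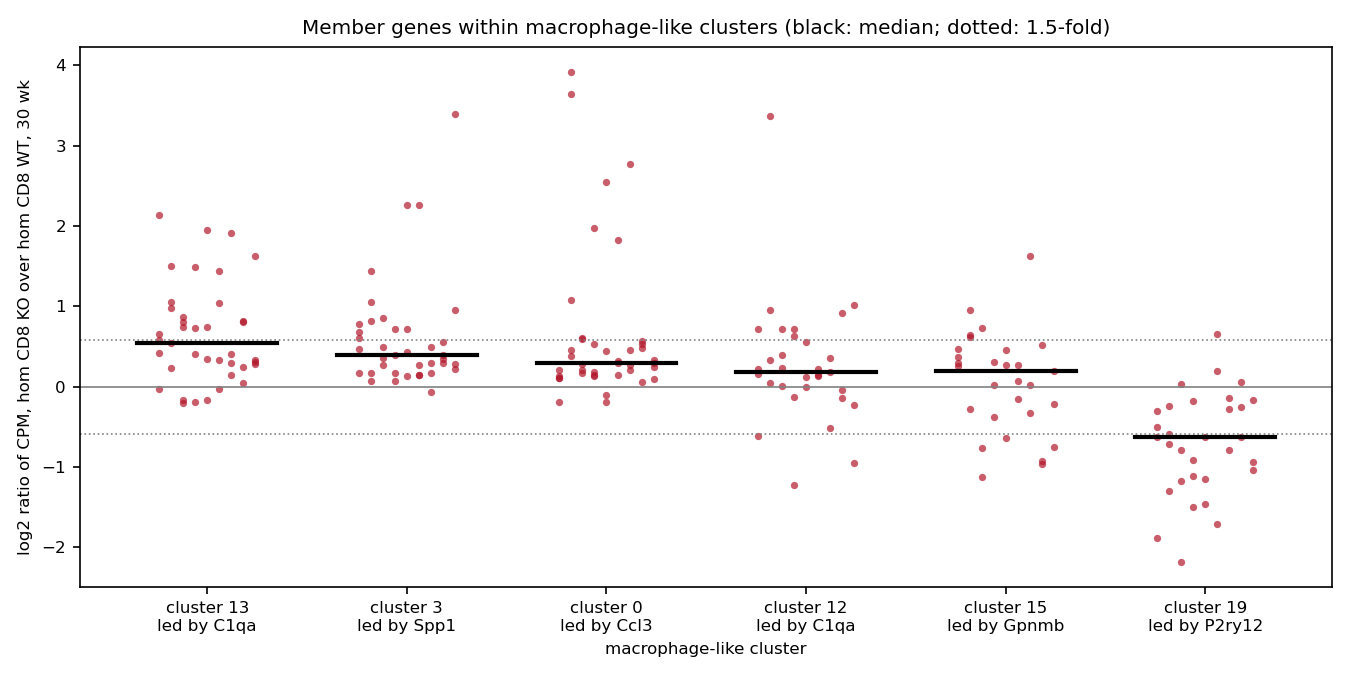
Log2 ratio of CPM, library labelled CD8 KO over 30-week WT, of each member with at least 20 UMIs in the pair (points) in 6 macrophage-like clusters, with the median (black line) and the 1.5-fold limits (dotted). Points lie mostly above 0 in clusters 13, 3 and 0 and mostly below 0 in cluster 19 (median −0.62).

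With the clusters weighted equally in each library, which was also chosen after the data were seen, 5 of 41 members were higher than in 30-week WT over 6 clusters (5.30% of all genes). Over the 3 clusters with at least 50 cells in every library (12, 13 and 19), 0 of 40 were above all 3 others (1.27%). The count for the class as a whole thus depends on how its clusters are weighted.

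Of the ligands, Ifnb1 (interferon beta) was found mainly in macrophage-like cells. It had 78 UMIs in 25 cells of the library labelled CD8 KO (3.35 CPM), 7 UMIs in 5 cells of 33-week WT (0.491 CPM), 17 UMIs in 6 cells of 30-week WT (0.812 CPM) and 11 UMIs in 10 cells of P301S neg (1.75 CPM). In the library labelled CD8 KO it was 4.12-fold (2.42 to 7.43) that of 30-week WT and 1.91-fold (1.01 to 3.98) that of P301S neg. Of its 78 UMIs, 31 came from 1 cell and 45 from 3 cells. In that library cluster 13 held 47 Ifnb1 UMIs, cluster 0 held 20 and cluster 19 held 9, all 9 in 1 cell. No Ifnb1 UMI was found in endothelial-, ependymal-, Schwann-, T cell- or erythroid-like cells.

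For the rest of the pathway in macrophage-like cells, none of 5 tested receptor genes, 9 signal transducers, 10 upstream sensing genes and 7 negative regulators was 1.5-fold above or below 30-week WT. These counts are near the background of 4.40% higher and 2.77% lower given above. Ifnar1, a receptor chain, stood at 73.5 CPM in the library labelled CD8 KO, 67.2 CPM in 33-week WT, 70.1 CPM in 30-week WT and 59.6 CPM in P301S neg. Of 10 genes known for induction by interferon gamma, 2 were higher, the chemokine Cxcl9 at 5.15 CPM in the library labelled CD8 KO against 1.72 CPM in 30-week WT, and the GTPase Gbp3 at 6.82 CPM against 4.30 CPM.

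Sex was held fixed by comparing male cells with the libraries that had them, a further alternative made after the data were seen. In male macrophage-like cells, 21 of 40 members were higher in the library labelled CD8 KO than in 33-week WT (6.73% of all genes) and 0 were lower, over 1634 and 611 cells. Rsad2 stood at 14.0 CPM in male cells of the library labelled CD8 KO and 3.54 CPM in those of 33-week WT (3.96-fold, 2.58 to 6.37), and Ifit3 at 16.2 and 4.92 CPM (3.29-fold, 2.28 to 4.89). Against male cells of P301S neg, 17 of 40 members were higher (14.4% of all genes) and 2 lower (31.3%). There Isg15 stood at 61.7 CPM in the library labelled CD8 KO and 62.7 CPM in P301S neg, and Ifit3 at 16.2 and 16.1 CPM, while Zbp1 was 5.49-fold (2.11 to 20.4) and Usp18 3.09-fold (1.79 to 5.87) higher. Ages differ by 3 weeks in the pair with 33-week WT, and 30-week WT could not be used because it held no male cell.

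Schwann-like cells are few: 94 cells in the library labelled CD8 KO, 32 in 33-week WT, 42 in 30-week WT and 36 in P301S neg. They come from 2 clusters in unequal parts, with 81 and 13 cells of the library labelled CD8 KO in clusters 7 and 33, against 23 and 19 cells of 30-week WT. Against 30-week WT, 14 of 17 members were higher (16.9% of all genes) and 1 was lower (15.9%). Isg15 stood at 658 CPM in the library labelled CD8 KO, 214 CPM in 33-week WT, 90.9 CPM in 30-week WT and 166 CPM in P301S neg. Ifit3 stood at 406 CPM in the library labelled CD8 KO, 143 CPM in 33-week WT, 77.9 CPM in 30-week WT and 135 CPM in P301S neg, and Ifit1 at 406, 71.4, 26.0 and 197 CPM in the same sequence. In all 3 genes the library labelled CD8 KO was the highest. The 211 UMIs of Isg15 in the library labelled CD8 KO lay in 31 of 94 cells, 97 of them in 3 cells, and the 19 UMIs of Ifit1 in P301S neg lay in 1 cell.

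The folds over 30-week WT were 7.25 (4.22 to 13.5) for Isg15, 5.21 (2.88 to 10.3) for Ifit3 and 15.6 (5.96 to 58.2) for Ifit1. Parp14, an ADP-ribose transferase, was 3.49-fold (1.66 to 8.45) higher on 58 and 8 UMIs. Slfn5 went the other way, at 3 UMIs in the library labelled CD8 KO and 23 in 30-week WT (0.0627-fold, 0.0121 to 0.208). Without the 3 cells richest in members in each library, 8 of 11 members were higher than in 30-week WT (18.8% of all genes) and Isg15 stood at 495, 114, 87.7 and 107 CPM in the same sequence of libraries. Slfn5 then stood at 10.8 CPM in the library labelled CD8 KO and 8.77 CPM in 30-week WT, so it was no longer lower. Markers of other cells also differed in this class: the 6 neuron markers summed to 318 CPM in the library labelled CD8 KO, 28.6 CPM in 33-week WT, 6.49 CPM in 30-week WT and 104 CPM in P301S neg, with 1 at 0 in all libraries (Syt1). The 10 endothelial markers summed to 1282, 28.6, 2940 and 3585 CPM and the 6 Schwann markers to 16097, 34425, 27408 and 21717 CPM in that sequence. Their part in the result was not tested, and too few sexed cells were left for a comparison within a sex.

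In ependymal-like cells (125, 162, 98 and 145 cells in the same sequence), 16 of 24 members were higher than in 30-week WT (7.95% of all genes) and 2 lower (5.96%), Stat2 and Herc6. Oasl2 stood at 67.5 CPM in the library labelled CD8 KO, 15.6 CPM in 33-week WT, 14.3 CPM in 30-week WT and 5.13 CPM in P301S neg. Isg15 stood at 24.9 CPM in the library labelled CD8 KO, 0.676 CPM in 33-week WT, 2.05 CPM in 30-week WT and 0.932 CPM in P301S neg. These gaps rest on very few cells. Of the 72 UMIs of Ifit3 in the library labelled CD8 KO, 43 came from 1 cell and 56 from 3 cells, and of the 41 UMIs of Isg15, 25 came from 1 cell.

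Without the 3 cells richest in members in each library, 2 of 24 members were above all 3 others (1.56% of all genes) in place of 12 of 27, and against 30-week WT 4 of 17 were higher (6.86%) and 4 lower (6.97%). Ifit3 then stood at 12.6 CPM in the library labelled CD8 KO, 9.05 CPM in 33-week WT, 3.16 CPM in 30-week WT and 2.52 CPM in P301S neg. Before that step the 10 endothelial markers summed to 489 CPM in ependymal-like cells in the library labelled CD8 KO, 75.8 CPM in 33-week WT, 136 CPM in 30-week WT and 51.7 CPM in P301S neg, with none at 0 and 8 of 9 tested markers above all others. The 8 erythroid markers summed to 4888, 1784, 179 and 412 CPM in the same sequence. Their part in the result was not tested.

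T cell-like and erythroid-like cells had more members above the other libraries than the background share, on few UMIs. In T cell-like cells Isg15 stood at 363 CPM in the library labelled CD8 KO (134 UMIs), 84.0 CPM in 33-week WT, 155 CPM in 30-week WT and 52.7 CPM in P301S neg. Bst2 stood at 211 CPM in the library labelled CD8 KO, 120 CPM in 33-week WT, 137 CPM in 30-week WT and 94.8 CPM in P301S neg. Of the T cell-like cells in the library labelled CD8 KO, 5 of 96 held 48.5% of the member UMIs. The richest 5% of cells held 33.1% in 33-week WT, 29.2% in 30-week WT and 15.3% in P301S neg. In erythroid-like cells Ifit3 stood at 27.9 CPM in the library labelled CD8 KO (27 UMIs), 3.52 CPM in 33-week WT, 0 CPM in 30-week WT (up to 1.34 CPM from a count of 0) and 1.51 CPM in P301S neg. The members with the highest erythroid level, Isg15, Isg20 and Rsad2, were not among the 10 above the other libraries. Cd8a itself differs in the T cell-like class, and its part in these values was not tested.

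In endothelial-like and monocyte-like cells, the classes highest by the mean over libraries, the library labelled CD8 KO did not stand above the others. In endothelial-like cells 0 of 42 members were higher than in 30-week WT (2.89% of all genes) and 2, Oas2 and Slfn8, were lower (3.99%), with a median log2 ratio of −0.01. Ifitm3 stood at 1864 CPM in the library labelled CD8 KO, 1640 CPM in 33-week WT, 1906 CPM in 30-week WT and 2302 CPM in P301S neg. The ratios ran from 0.598-fold for Slfn8, at 2.02 CPM in the library labelled CD8 KO, to 1.30-fold for Ifi27l2a. In monocyte-like cells 1 of 29, Ifih1, was higher (10.2%), and Ifi27l2a, Xaf1 and Herc6 were lower (11.0%). The member sum of that class was lowest in the library labelled CD8 KO, at 8316 CPM (7958 to 8686) on 47 cells. The next lowest was P301S neg, at 8943 CPM (8718 to 9173). Ifi27l2a stood there at 1166 CPM in the library labelled CD8 KO, 1623 CPM in 33-week WT, 1961 CPM in 30-week WT and 1574 CPM in P301S neg. In male endothelial-like cells 5 of 41 members were higher than in 33-week WT (5.09% of all genes), and against P301S neg 2 were higher (5.73%) and 24 of 42 lower (6.02%).

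The transgene comparison set 30-week WT of P301S homozygous mice against P301S neg. In macrophage-like cells 11 of 40 members were higher (11.5% of all genes) and 10 lower, a smaller share than the 36.1% of all genes that were lower. The all-gene median log2 ratio in this class was −0.37 and the trimmed-mean (TMM) shift was −0.44, so ratios are read against that level. With TMM scaling 15 of 40 members were higher (22.7% of all genes) and 4 lower (16.2%). Lgals3bp stood at 432 CPM in 30-week WT and 108 CPM in P301S neg (4.01-fold, 3.71 to 4.34). Oas1a stood at 8.08 and 1.75 CPM (4.60-fold, 2.51 to 9.40), Zbp1 at 7.36 and 2.39 CPM (3.08-fold, 1.81 to 5.63) and Ifi204 at 84.8 and 30.6 CPM (2.77-fold, 2.38 to 3.23) in the same order.

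The lower members were Ifit1, Ifit2, Ifit3, Ifit3b, Rsad2, Cmpk2, Rtp4, Stat2, Herc6 and Ddx60. Ifit3 stood at 7.36 CPM in 30-week WT and 16.6 CPM in P301S neg (0.444-fold, 0.344 to 0.575), Rsad2 at 3.25 and 6.86 CPM (0.474-fold, 0.319 to 0.711), and Cmpk2 at 1.39 and 3.67 CPM (0.378-fold, 0.211 to 0.684). With female cells only, Ifit3 remained lower (0.540-fold, 0.380 to 0.783), and Rsad2 stood at 3.37 CPM in 30-week WT and 3.29 CPM in P301S neg. The make-up of the class differs in this pair, with 73.3% of P301S neg macrophage-like cells in cluster 19. Within cluster 19, 22 of 36 members were higher in 30-week WT (7.81% of all genes) and 1 was lower (10.3%), with a median log2 ratio of 0.73. There 30-week WT stood apart, with a member sum of 1755 CPM against 1030 CPM in P301S neg. The library labelled CD8 KO (1163 CPM) and 33-week WT (1165 CPM), also P301S homozygous, lay closer to P301S neg. The CD8 KO, transgene and age counts of cluster 19 all share 30-week WT. Ifit3 stood there at 29.2 CPM in 30-week WT and 14.0 CPM in P301S neg, the reverse of its direction in the class as a whole. Of the genes of upstream sensing, 8 of 10 were lower in 30-week WT and 0 higher, and of the signal transducers 4 of 9 were lower. Of all genes in the class, 36.1% were lower and 11.5% higher, so the signal transducers were near that share. These counts are before the TMM shift is taken into account and span clusters that differ in share between the libraries.

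In endothelial-like cells 0 of 42 members were higher in 30-week WT than in P301S neg (4.58% of all genes) and 5 were lower (6.91%), Zbp1, Bst2, Ifit2, Ifit3 and Isg20, with a median log2 ratio of −0.31. Zbp1 stood at 7.20 CPM in 30-week WT and 26.6 CPM in P301S neg (0.271-fold, 0.197 to 0.366), Bst2 at 228 and 372 CPM (0.614-fold, 0.580 to 0.650) and Ifit2 at 12.5 and 23.8 CPM (0.524-fold, 0.408 to 0.667). Zbp1 and Bst2 thus went in opposite directions in macrophage-like and endothelial-like cells. The interferon gamma-induced genes differed more, with 10 of 10 lower and a median log2 ratio of −1.13. Igtp, an immunity-related GTPase of that list, stood at 56.7 CPM in 30-week WT and 270 CPM in P301S neg. In this class 30-week WT held 866 female and 0 male cells, and P301S neg held 821 and 482. Values of these 10 genes within a sex are not given here.

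The endothelial difference in members was small between female cells at 30 weeks and larger in the other comparisons within a sex. With female cells only, 1 of 41 members was lower in 30-week WT than in P301S neg (8.54% of all genes), and Zbp1 stood at 7.06 CPM in 30-week WT and 9.22 CPM in P301S neg. Female cells of 33-week WT were lower than female cells of P301S neg in 11 of 41 members (11.8%), with Ifit2 at 0.264-fold (0.118 to 0.517) and Ifit3 at 0.523-fold (0.388 to 0.694). Male cells of 33-week WT were lower than male cells of P301S neg in 23 of 40 members (6.39%). Zbp1 stood at 7.93 CPM in male cells of 33-week WT and 48.0 CPM in those of P301S neg (0.165-fold, 0.0990 to 0.261), and Bst2 at 183 and 514 CPM (0.357-fold, 0.322 to 0.394). Within P301S neg, 18 of 41 members were lower in female than in male cells (4.58%), and members summed to 4830 CPM in female and 6834 CPM in male cells, against 3876 and 4138 CPM in 33-week WT. With 2 mice per pool, the female and the male cells of a library may each come from 1 animal, so sex and animal cannot be told apart. In fibroblast-like cells 1 of 17 members, Samd9l, was higher in 30-week WT (12.6%) and 13 were lower (25.6%), on 37 cells in each library. These were 33 female and 0 male cells in 30-week WT and 14 and 11 in P301S neg, with no comparison within a sex. In P301S neg, 2 of the cells held 31.0% of the member UMIs.

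The age comparison set 33-week WT against 30-week WT. In macrophage-like cells 2 of 40 members were higher at 33 weeks (3.20% of all genes) and 6 were lower (3.09%). Ifit1 was 1.63-fold (1.14 to 2.33) and Ifit3b 1.65-fold (0.795 to 3.46) higher. Ifi27l2a stood at 68.4 CPM in 33-week WT and 115 CPM in 30-week WT (0.592-fold, 0.549 to 0.638) and Irf7 at 10.0 and 16.6 CPM (0.605-fold, 0.494 to 0.737). Within cluster 19, 17 of 31 members were lower at 33 weeks (8.67% of all genes). That count shares the high member sum of 30-week WT in cluster 19, 1755 CPM, against 1165 CPM in 33-week WT and 1030 CPM in P301S neg. In endothelial-like cells 0 of 41 members were higher (3.34%) and 5 were lower (4.73%), Ifit2, Ifit3b, Dhx58, Ifi27l2a (0.470-fold, 0.351 to 0.625) and Ifi44 (0.541-fold, 0.408 to 0.710). In neutrophil-like cells 11 of 36 members were higher in 33-week WT (8.10%) and 0 lower (11.1%), but 30-week WT held no male cell. With female neutrophil-like cells only, 3 of 21 members were higher in 33-week WT (9.37%) and 1 was lower (10.4%). Within 33-week WT, 8 of 10 members were lower in female than in male neutrophil-like cells (15.8%), with member sums of 1272 and 2059 CPM, and within P301S neg 12 of 19 (20.5%).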

How the data were processed

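Per the labels, 2 cords per group were pooled, dissociated and depleted of myelin before droplet capture with a 3' kit. The deposited matrices give unnormalized UMI counts for each gene in each barcode, made by the authors with Cell Ranger 6.0.1 per the file headers, on mm10 per the submitters' processing notes. Cells needed at least 500 UMIs, 200 genes and at most 15% mitochondrial UMIs. Doublets (42 to 98 per library) were called by Scrublet within scanpy 1.11.5, expecting 6%, and removed. Cells were clustered jointly without batch integration and without the member genes or sex-linked genes (2000 variable genes chosen, 1990 used, 30 principal components, 15 neighbours, Leiden resolution 1.0, igraph 0.11.9), which gave 36 clusters. Clusters were named from marker lists by the highest median log2 ratio, needing at least 3 markers in 10% of cells. Names such as macrophage-like rest on RNA markers, and 6.67% to 11.3% of kept cells were set aside as mixed. Gene positions come from GENCODE M21.

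UMIs were summed per class and library and scaled to CPM. Members were counted at 1.5-fold among those with at least 20 UMIs in the libraries compared, in classes of at least 30 cells per library, beside the share of all genes past the same limits. A count of 0 stood at a floor of 3 UMIs. Intervals are exact Poisson (CPM), exact binomial (shares) and exact conditional-binomial (folds), and cover counting error only. Calls and intervals were tested on class sums simulated as Poisson counts. Those sums lack the clumping of UMIs in few cells, so they do not show how the intervals hold for clumped members. Values were given for the 4 highest members per class, the 4 highest and 4 lowest ratios per comparison and up to 8 members above all other libraries, and some genes that the rule selects are left unprinted. The members, lists and markers were chosen with earlier results of these data known. Alternatives were TMM scaling, means of single-cell CPM, 100 UMIs, 2-fold, a stricter cell filter, doublets kept, resolution 2.0 and sexes separately. Software was matplotlib 3.10.9, scikit-learn 1.9.0, anndata 0.12.19, pandas 2.3.3, scipy 1.17.1 and numpy 2.4.6 under Python 3.11.15.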

Additional observations from a re-analysis of the deposited data

Results flagged for a closer look

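In the library labelled CD8 KO over 30-week WT, 9 members were called in opposite directions in macrophage-like clusters 13 and 19: Ifit3, Ifitm3, Isg15, Irf7, Oasl2, Ifi27l2a, Rtp4, Ifih1 and Slfn5 were each at least 1.5-fold higher in cluster 13 and lower in cluster 19. Irf7 stood in cluster 13 at 45.7 CPM in the library labelled CD8 KO, 13.8 CPM in 33-week WT, 14.9 CPM in 30-week WT and 19.8 CPM in P301S neg. In cluster 19 it stood at 13.5, 16.8, 37.3 and 15.1 CPM in the same sequence, so that there 30-week WT was the library apart from the others. Of all genes, 4.73% were higher in cluster 13 and 7.48% were lower in cluster 19, each cluster counted alone. The share of all genes called in opposite directions was not computed. The difference between clusters was not tested, since each group is 1 library.

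For 30-week WT over P301S neg, Zbp1 had a log2 ratio of 1.62 in macrophage-like and −1.88 in endothelial-like cells, and Bst2 of 0.60 and −0.70. With female cells only, the folds in endothelial-like cells were 0.766 (0.511 to 1.14) for Zbp1 and 0.926 for Bst2, and in macrophage-like cells 3.64 and 1.56. For 33-week over 30-week WT, Ifit3b had a log2 ratio of 0.72 in macrophage-like and −1.07 in endothelial-like cells. Ifit3b is a close copy of Ifit3. These differences were not tested.

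A cluster led by the sensory neuron genes Calca and Prph was set aside because macrophage markers were mixed into it, and held 141 cells in the library labelled CD8 KO and 1 in 33-week WT. Members summed there to 2079 CPM (1993 to 2167), above the limit that a count of 0 allows, beside 1991 CPM in macrophage-like cells of the same library. How much of the sum belongs to which cells was not tested.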

How the results depend on the processing

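Of 188 alternative values of 20 counts, 145 stayed within 1.5 times the reported count and 43 did not; the cause was not tested. In macrophage-like cells, members higher than in 30-week WT (16) were 7 at 2-fold and 5 with clusters weighted equally, and members above all 3 other libraries (10) were 4 and 0. For 30-week WT over P301S neg there, the 11 higher members became 7 at 2-fold and 7 with doublets kept, and the 10 lower became 4 with TMM scaling, 5 with means of single-cell CPM, 4 at 2-fold and 4 with equal clusters. For age, the 2 higher became 1 with single-cell means, 1 at 100 UMIs, 0 at 2-fold and 4 in female cells, and the 6 lower became 1 at 2-fold. In endothelial-like cells, the 0 members higher than in P301S neg became 1 with the stricter filter and the 5 lower became 1 at 2-fold and 1 in female cells. The 2 below 30-week WT in the library labelled CD8 KO became 1 with single-cell means, 1 at 100 UMIs, 0 at 2-fold and 1 with the stricter filter, and 1 member in place of 0 was above the others in male cells. The 5 lower at 33 weeks became 3 at 100 UMIs and 2 at 2-fold.

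In ependymal-like cells, the 16 members above 30-week WT became 3 at 100 UMIs and 4 without the richest cells. The 2 below it became 1 with single-cell means, 0 at 100 UMIs, 0 at 2-fold, 1 with the stricter filter, 4 with doublets kept and 4 without the richest cells, and the 12 above all others became 5, 2 and 2 with single-cell means, 100 UMIs and without the richest cells. In Schwann-like cells, the 14 higher became 6 at 100 UMIs and 8 without the richest cells, the 1 lower became 0 in both, and the 7 above all others became 12 with TMM scaling, 12 with single-cell means and 3 at 100 UMIs. Settings without the richest cells, with equal clusters and with male cells were chosen after seeing the data. Male cells could not be compared between the library labelled CD8 KO and 30-week WT, which held 0. No paired analysis was possible because each group is 1 library. Few UMIs limit the Schwann-like counts, with 17 members tested, and a few cells carry the ependymal-like ones.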
